A study of Mus musculus with 12 samples.

Results

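Retinal cells that held RNA of Igfn1, an immunoglobulin-like and fibronectin type III domain gene, together with RNA of a bipolar cell gene were described in 12 Drop-seq libraries of mouse retina. A cell was a member if at least 200 genes were detected, if Igfn1 had a unique molecular identifier (UMI, a tag that marks 1 captured RNA molecule), and if at least 1 of Cabp2, Isl1, Trpm1, Scgn, Grm6 and Otx2 also had a UMI. This rule found 1007 of 24772 cells. The members were thus chosen by their measured values of these genes, so the levels of these 7 genes are a description of the choice and were not tested. The members were not 1 kind of cell: 470 of them (46.7%) lay in clusters led by rod bipolar genes, 288 (28.6%) lay in a cluster led by Igfn1 itself, and 249 (24.7%) were spread over other clusters.

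The pups were C57B6 mice. OIR pups (oxygen-induced retinopathy) were kept in 75% oxygen with a foster mother from day 7 to day 12 and then in room air, and NORM pups stayed in room air with their own mother. Retinas were taken at P14 or P17 and dissociated whole or after rod depletion, which gives 8 groups. The 4 NORM libraries are 1 of each age and fraction, and there are 8 OIR libraries, of which 5 are whole retina (3 at P14, 2 at P17) and 3 are rod-depleted (2 at P14, 1 at P17). The labels do not say which libraries came from separate animals, so the p-values below measure the spread between libraries, which may be technical. The libraries held 932 to 3415 cells, with a median of 432 to 1794 UMIs per cell, and 36182149 UMIs in all. The P17 whole-retina NORM library was the shallowest and gave 7 members, and the P17 whole-retina OIR libraries were the deepest and gave 394 members, 39.1% of the total. Across all pairs of libraries, 14 cell barcodes occurred in more than 1 library, and none of them was shared between members.

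Bipolar cells carry signals from photoreceptors to the inner retina. ON types sense glutamate through the receptor mGluR6 (Grm6), which acts through a G protein (Gnao1, Gnb3, Gng13) and the scaffold proteins Gpr179 and nyctalopin (Nyx) to close the cation channel Trpm1, whereas OFF types use ionotropic receptors such as the kainate receptor subunit Grik1. Rod bipolar cells are the ON type that serves rods and are known by protein kinase C alpha (Prkca) and the homeobox gene Sebox. Among ON cone bipolar types, Igfn1 is known as a marker of type 7, a transgene driven by the promoter of gustducin (Gnat3) labels type 7, and the homeobox gene Vsx1 is known from type 7 and from several OFF types. In oxygen-induced retinopathy, vessels of the central retina are lost during high oxygen, and the return to room air leaves the inner retina short of oxygen.

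Igfn1 lies on chr1:135953578-136006342 (minus strand, GRCm38). The 250 bases before the RefSeq start of Igfn1, of Cabp2 and of Reln are shown because RNA of these genes was found together in the cluster led by Igfn1, and because no annotated exon overlaps these windows. They are RefSeq sequences of GRCm38.p6, at chr1:136006343-136006592 (minus strand), chr19:4082238-4082487 (plus strand) and chr5:22344706-22344955 (minus strand). The Cabp2 window lies within the annotated span of the gene, chr19:4081578-4087340, so it is not upstream of the whole gene. Capitals mark the E-box letters CANNTG.
Igfn1: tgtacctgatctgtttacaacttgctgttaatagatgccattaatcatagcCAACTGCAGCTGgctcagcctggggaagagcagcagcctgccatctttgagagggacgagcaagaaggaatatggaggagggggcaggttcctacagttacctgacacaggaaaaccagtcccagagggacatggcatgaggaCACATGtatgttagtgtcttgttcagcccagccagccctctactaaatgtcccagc
Cabp2: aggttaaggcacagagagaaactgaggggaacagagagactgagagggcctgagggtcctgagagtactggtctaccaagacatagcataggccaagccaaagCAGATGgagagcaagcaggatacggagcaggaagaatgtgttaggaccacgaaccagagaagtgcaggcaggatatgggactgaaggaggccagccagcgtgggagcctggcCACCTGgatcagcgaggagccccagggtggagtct
Reln: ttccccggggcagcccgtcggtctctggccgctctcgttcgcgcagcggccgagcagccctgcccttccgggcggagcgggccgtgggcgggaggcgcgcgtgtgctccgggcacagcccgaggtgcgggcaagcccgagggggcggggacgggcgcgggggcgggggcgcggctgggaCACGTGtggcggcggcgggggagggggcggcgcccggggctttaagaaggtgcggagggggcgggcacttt
The E-box letters, read on both strands, occurred 3 times before Igfn1, 2 times before Cabp2 and once before Reln, and 66.2% of all 32851 promoter windows of this length held them. The homeodomain letters TAATCC (with GGATTA on the other strand; 6.25% of windows) and TAATTA (4.84% of windows) were in none of the 3 windows. E-box and TAATTA were added to the search after the Igfn1 sequence had been seen, and a match is a description of the letters, not of a binding site. Reln was the richest in G and C (80.0%), against 50.8% for Igfn1 and 56.8% for Cabp2.

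Igfn1 RNA was concentrated in 1 of 28 clusters. That cluster held 577 cells and was led by Igfn1, Cpne9, Cabp2, Sec1, Vsx1, Cdh9, Medag, Reln, Fn1 and Kcnab1. Igfn1 was detected in 50.1% of its cells (17.4% to 75.3% in the 9 libraries with at least 20 of its cells), at a mean normalised value of 10.3 per 10000. In the 3 clusters led by rod bipolar genes, with 5384 cells, it was detected in 8.75% of cells (1.06% to 22.3% over the 12 libraries), at 0.773 per 10000. Members of the rod bipolar-led clusters thus came from a small share of a far larger population.

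Background was read from cell types taken to lack the gene, and its source, such as free RNA, was not tested. Igfn1 was detected in 1.49% of the 4493 cells of rod-led clusters (median 742 UMIs per cell), 0.979% of cones (median 1010) and 0.712% of cells of Müller-led clusters (median 1114), whereas the median was 1414 in the Igfn1-led cluster and 1174 in the rod bipolar-led clusters. When each cell was thinned to 500 UMIs, the share was 34.7% (exact 95% binomial interval 30.6% to 39.0%, which covers counting error only) in the Igfn1-led cluster. It was 3.59% (3.09% to 4.14%) in the rod bipolar-led clusters and 1.22% (0.864% to 1.67%) in the rod-led clusters. At equal depth, the share in rod bipolar-led clusters stayed above that of rods, and the share in the Igfn1-led cluster was the highest. A cluster led by haemoglobin genes, with 836 cells, had 9.25% (6.63% to 12.5%) at 500 UMIs and held 66 members. Within the rod bipolar-led clusters, the P14 whole-retina NORM library had 12.3% at 500 UMIs, and the other libraries had 1.25% to 6.18%.

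**Figure D1:**
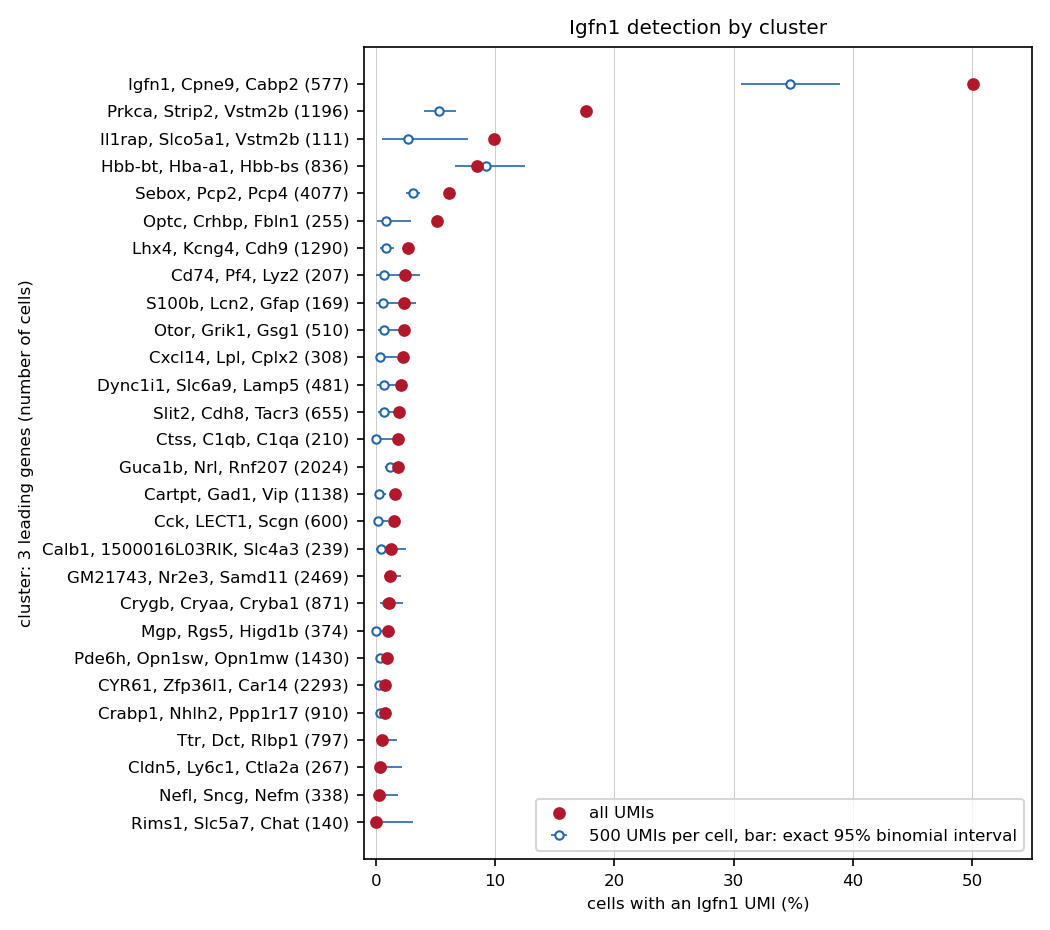
Share of cells with an Igfn1 UMI (x axis, percent) in each of the 28 clusters (y axis, named by 3 leading genes with the number of cells), with all UMIs (filled) and after thinning each cell to 500 UMIs (open, with exact 95% binomial interval). The Igfn1-led cluster stands at 50.1% and 34.7%, and the other 27 clusters lie at or below 17.6% with all UMIs.

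The number of Igfn1 molecules per cell separated the members by cluster. Of the 627 members with exactly 1 Igfn1 UMI (62.3% of members), 11.5% lay in the Igfn1-led cluster and 57.9% in the rod bipolar-led clusters. Of the 380 with at least 2, 56.8% lay in the Igfn1-led cluster and 28.2% in the rod bipolar-led clusters. Of the 103 with at least 5, 99 lay in the Igfn1-led cluster and 1 in a rod bipolar-led cluster, and all 28 with at least 10 lay in the Igfn1-led cluster. The highest count was 27 UMIs in 1 cell. Members of the Igfn1-led cluster held a mean of 4.35 Igfn1 UMIs (median depth 1874 UMIs per cell), against 1.32 for members of the rod bipolar-led clusters (median depth 1658). Igfn1 helped to form the clusters, so these values describe the cells and were not tested.

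Members just inside the gene minimum were few: 19 members had under 300 genes, the fewest being 219, and 6 more cells met the gene rule with under 200 genes. A further 83 cells had an Igfn1 UMI and none of the 6 bipolar genes. Among members, 98 had 1 of the 6 genes, 364 had 4 and 25 had all 6. Members were deeper than other cells, with a median of 1674 UMIs against 1032. No doublet caller was run, and 42 members had over 5000 UMIs.

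Genes of the ON pathway were detected in both main groups of members. Trpm1 and Grm6 are among the 6 genes the rule read, so their shares are partly set by the choice. Trpm1 was detected in 89.6% of members of the Igfn1-led cluster and in 99.6% of members of the rod bipolar-led clusters, and Grm6 in 66.0% and 75.5%. Gnb3, the G protein beta subunit of ON bipolar cells, was detected in 97.9% and 94.5%, and Gpr179 in 79.2% and 85.1%. The rule did not read these 2 genes. In the OFF gate defined below, which was chosen to lack Grm6 and Isl1, Gnb3 was detected in 40.7% of cells and Gpr179 in 15.4%. The shares in the shallower rod-led clusters were 23.0% and 4.92%. The kainate receptor gene Grik1, used by OFF types, was found in 3.47% of members of the Igfn1-led cluster.

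The shares of type markers differed between these groups. Prkca, Sebox and Car8 are leading genes of the rod bipolar-led clusters, and Vsx1, Cabp2, Cdh9, Fn1 and Reln of the Igfn1-led cluster. The order of their shares thus follows from which genes led the clusters, and was not tested. Prkca was detected in 6.60% of members of the Igfn1-led cluster and 85.1% of members of the rod bipolar-led clusters. Sebox was detected in 3.13% and 76.0%, and Car8, a carbonic anhydrase-related gene of rod bipolar cells, in 2.43% and 88.1%. Cabp5, a calcium-binding protein gene of rod bipolar and some cone bipolar cells, was detected in 10.1% and 84.7%. The opposite order held for Vsx1 (63.5% and 0.426%), Cabp2 (58.0% and 3.62%) and the cadherin gene Cdh9 (54.5% and 0.426%). It also held for the fibronectin gene Fn1 (64.6% and 0.851%) and for Reln (59.4% and 1.70%), which encodes the secreted protein reelin. Members outside these clusters had Vsx1 in 15.3%, Prkca in 18.5% and Trpm1 in 69.1%. Glul RNA, which belongs to Müller glia, was found in 37.9% of members of the Igfn1-led cluster.

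**Figure D2:**
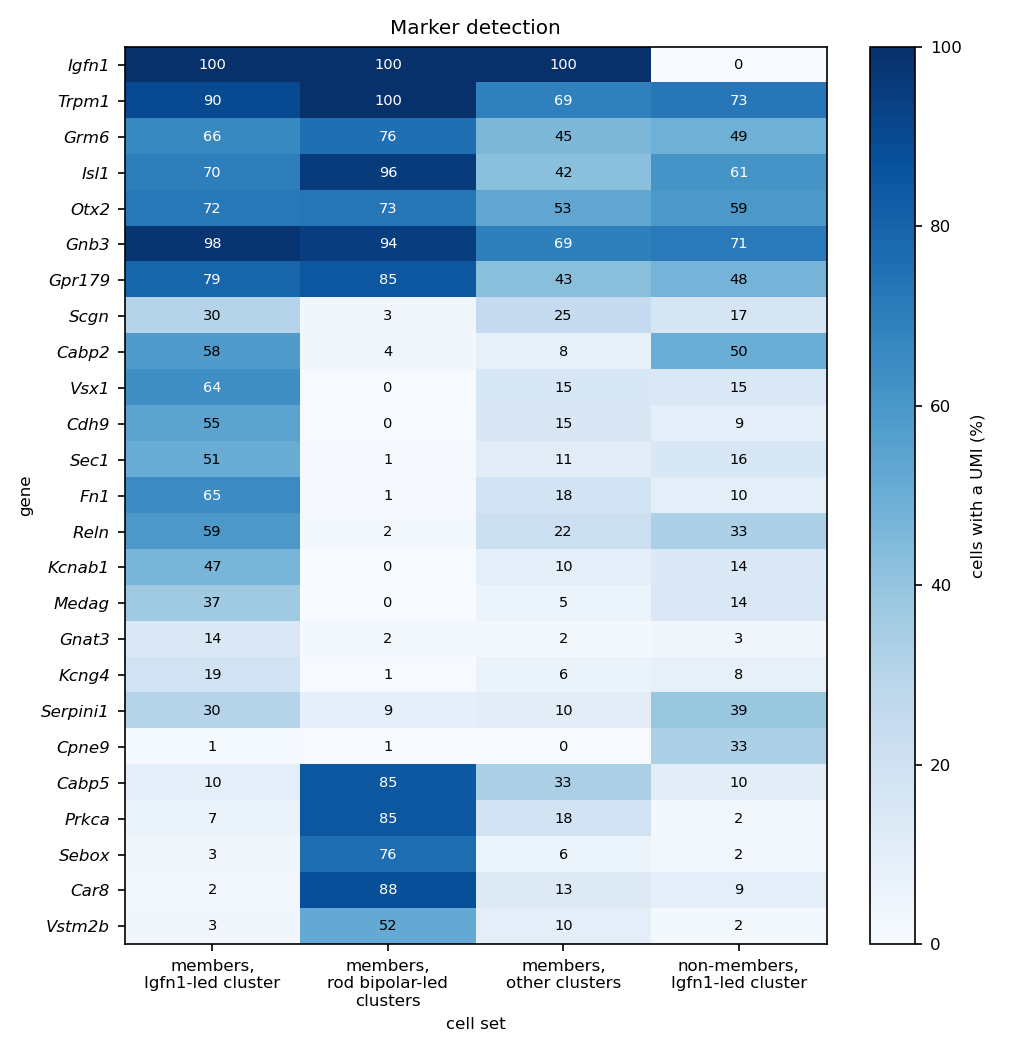
Share of cells with a UMI (colour and printed value, percent) for each gene (rows) in 4 sets of cells (columns). The 5 lowest genes of the panel are high in the column of members in rod bipolar-led clusters (Prkca 85.1%), and Vsx1 is at 63.5% in members of the Igfn1-led cluster and 14.6% in cells of that cluster without Igfn1.

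The Igfn1-led cluster was given no type name, because only 1 type 7 marker, Igfn1, was in the marker list, and Igfn1 chose the members and helped to form the cluster. Of the 6 type 5 markers, Kcng4 was detected in 18.8% of these members and Sox6 in 1.04%, Slitrk5 in 0.347%, and Chrm2, Lrrtm1 and Htr3a in none of 288 cells, which allows up to 1.04% of cells with a UMI for each and sets no limit on cells that express the gene undetected. The type 6 markers Syt2 and Cck were detected in 0.347% and 1.04%. Gnat3 was detected in 41 of the 288 (14.2%), against 0.852% of the rod bipolar gate, 0.253% of the type 5 gate and 0.170% of the OFF gate defined below. Vsx1 was detected in 63.5% of these members. The rule read neither Gnat3 nor Vsx1, which are both named with type 7 above. Vsx1 is also known from OFF types and was a leading gene of the cluster. Gnat3, Vsx1, Cdh9, Fn1, Sec1 and Reln were singled out after their values had been seen, so a match to type 7 was not tested.

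The Igfn1-led cluster itself held a second kind of cell. Cpne9, a copine gene listed for types 8 and 9 and for blue cone bipolar cells, was detected in 99 of its 577 cells and Igfn1 in 289, and only 4 cells had both. Cells of the cluster without an Igfn1 UMI had Cpne9 in 33.0%, Cabp2 in 50.0%, Vsx1 in 14.6% and Fn1 in 10.1%, whereas members in it had Cpne9 in 1.39%. Serpini1, also listed for types 8 and 9, was detected in 30.2% of members in the cluster. The cells without Igfn1 were shallower (median 943 UMIs) than the members (1874).

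The same mixture was read without the clusters, by counting 5 rod bipolar markers, among them Prkca, Sebox, Vstm2b and Car8. At least 2 of them were found in 490 members (48.7%), none in 412 (40.9%) and 1 in 105 (10.4%). Of the 490 marked members, 452 lay in rod bipolar-led clusters, and of the 412 unmarked members, 245 lay in the Igfn1-led cluster. This split was chosen after the data had been seen, so the values that follow describe it over 11 libraries and carry no test. Values are means per library of normalised expression per 10000 UMIs, and differences are on the log2(value + 0.2) scale.

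Genes known from rod bipolar cells ran with the markers. Pcp4, a calmodulin regulator, ranged from 33.7 to 101.3 (median 56.5) in marked members and from 1.67 to 18.8 (median 3.68) in unmarked members, and the ranges did not overlap. Cabp5 (medians 16.7 and 3.06) was also higher in marked members in 11 of 11 libraries, as was Gabrr1 (medians 4.204 and 2.23), a subunit of the ionotropic GABA receptor of bipolar terminals.

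Another set of genes ran the other way. Vsx1 was at most 0.403 in marked members and ranged from 1.56 to 16.7 (median 4.75) in unmarked members. Fn1 was at most 0.555 against 2.83 to 17.9, and Reln was at most 1.23 against 2.22 to 9.78. The AMPA receptor gene Gria2 was at most 3.23 against 5.17 to 19.3. These 4 genes were lower in marked members in 11 of 11 libraries, without overlap of the ranges. Gabrr2, a GABA receptor subunit (medians 3.64 and 9.29), was lower as well in every library. Genes of the mGluR6 cascade did not run together. Gng13 (log2 difference 1.13 ± 0.11 SE) and Gnao1 (1.10 ± 0.13) were higher in marked members in 11 of 11 libraries, and Gpr179 (0.75 ± 0.16) and Rgs7 (1.63 ± 0.36, from low levels) in 10 of 11. Gnb3 had -0.12 ± 0.11, with medians of 25.5 and 26.2, and was higher in marked members in 3 of 11. Apoe, a Müller gene, had medians of 1.68 and 8.69, and the part of Müller RNA in these differences was not tested.

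**Figure D3:**
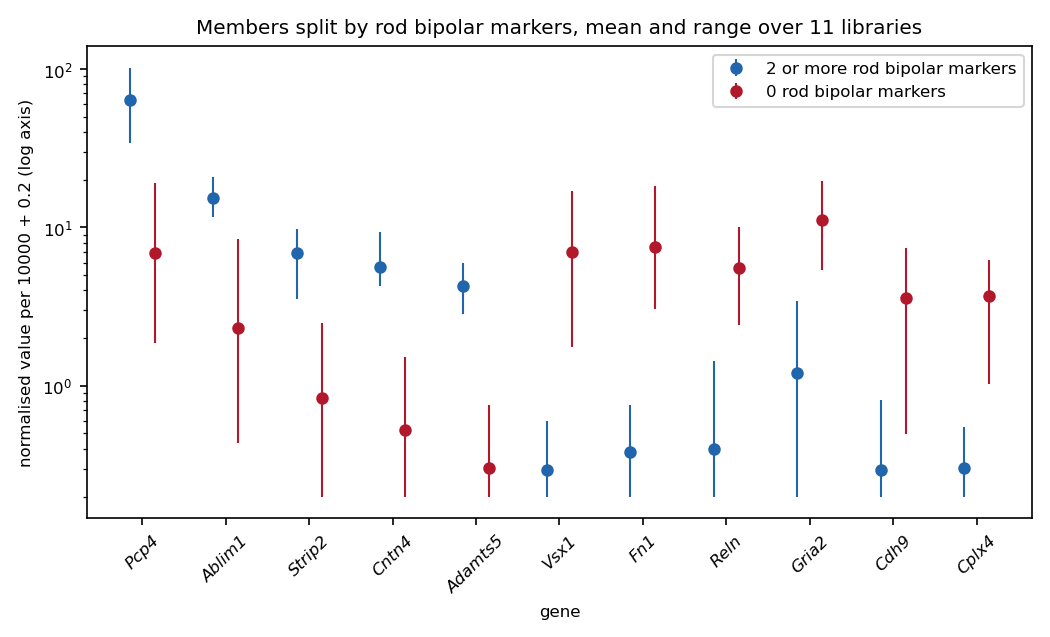
Mean (point) and range (bar) over 11 libraries of the normalised value per 10000 plus 0.2 (y axis, log scale) for 11 genes (x axis) in members with at least 2 rod bipolar markers (blue) and with none (red). Pcp4, Strip2, Cntn4, Adamts5 and Ablim1 are high in blue, and Vsx1, Fn1, Reln, Gria2, Cdh9 and Cplx4 are high in red.

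The members as a whole were then compared with 3 groups of cells without Igfn1, taken by marker gates from the same libraries. The rod bipolar gate needed at least 2 of the 5 rod bipolar markers and no UMI of Scgn or Vsx1. The type 5 gate needed a type 5 marker and any of Isl1, Grm6 and Trpm1. It also needed any of Scgn, Vsx1 and Cabp5, and no UMI of Prkca or Sebox. The OFF gate needed Grik1 with a bipolar gene and without ON, rod bipolar or amacrine genes. Genes that run with those a gate needed or barred therefore differ partly by this choice. Genes read by either side were not tested, each test was limma with library as a block, and p-values were adjusted over all genes tested by the Benjamini-Hochberg method with a threshold of 0.05. The same members stand in all 3 comparisons, and their make-up (48.7% with rod bipolar markers) is part of every value.

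Against the rod bipolar gate (11 libraries, 1000 against 4645 cells), 192 genes (2.61%) were higher and 135 (1.83%) lower in members, 4.44% of 7359 genes in all. Fn1 ranged from 0.497 to 7.20 (median 2.99) in members and from 0.0325 to 0.422 (median 0.167) in the gate. Members were higher in 11 of 11 libraries and the ranges did not overlap (log2 difference 2.94 ± 0.21 SE, limma adjusted p = 3.5e-13). Reln (2.80 ± 0.19), Cdh9 (2.65 ± 0.22), the peptide receptor gene Vipr2 (2.11 ± 0.18), the adenylyl cyclase gene Adcy2 (2.11 ± 0.19), the potassium channel subunit gene Kcnab1 (2.05 ± 0.20), the T-type calcium channel gene Cacna1h (1.94 ± 0.19) and Gria2 (1.90 ± 0.14) were also higher in every library. Pcp4 was lower, with medians of 24.3 and 59.6 (log2 difference -0.90 ± 0.08), as were the phosphatase gene Dusp4 (-1.30 ± 0.19) and Ralyl (-1.01 ± 0.16). The mGluR6 cascade list had 2 of 9 tested genes lower and none higher, with a median of -0.13 beside -0.03 over all genes.

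Against the type 5 gate (9 libraries, 883 against 755 cells), 227 genes (2.93%) were higher and 217 (2.81%) lower, 5.74% of 7736 genes in all. The LIM homeobox gene Lhx4 ranged from 0.462 to 2.82 (median 1.65) in members and from 2.71 to 13.4 (median 10.1) in the gate, and was lower in members in 9 of 9 libraries (log2 difference -2.36 ± 0.22, limma adjusted p = 7.2e-09). The nuclear receptor gene Esrrg (-2.70 ± 0.25), Nfia (-2.61 ± 0.30), Gsg1 (-2.91 ± 0.31) and Neurod4 (-1.35 ± 0.12) were also lower in 9 of 9. Of 24 bipolar transcription factor genes tested, 11 were lower and 3 higher, with a median of -0.73 beside -0.01 over all genes. Fn1 was higher (2.99 ± 0.33), and Cdh9 did not pass the test (-0.30 ± 0.22, limma adjusted p = 0.566). Pcp2 (2.17 ± 0.14) was higher in members in 9 of 9 libraries. With members of the Igfn1-led cluster alone, the rod bipolar genes Car8 and Ablim1, higher in all members, had -1.84 and -0.57, and Cdh9 was higher (1.08 ± 0.23, limma adjusted p = 0.00555, 6 libraries).

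Against the OFF gate (7 libraries, 752 against 530 cells), 260 genes (3.33%) were higher and 263 (3.37%) lower, 6.71% of 7800 genes in all. Of the mGluR6 cascade, 6 of 9 tested genes were higher in members and none lower, with a median of 1.28 beside -0.02 over all genes. Gpr179 ranged from 9.25 to 18.2 (median 13.5) in members and from 0.148 to 2.32 (median 1.25) in the gate (log2 difference 3.30 ± 0.26, limma adjusted p = 4.0e-09). Gng13 (2.33 ± 0.11), Gnao1 (2.24 ± 0.14), Gnb3 (2.21 ± 0.13), Nyx (1.28 ± 0.30) and Rgs11 (1.07 ± 0.15), which ends the G protein signal, were higher in 7 of 7 libraries. Of the OFF list, 9 of 11 genes were lower and none higher, with a median of -1.74. Otor (-4.57 ± 0.29), Gsg1 (-4.72 ± 0.32) and Slitrk6 (-3.79 ± 0.22) were lower in 7 of 7. The gate was chosen to lack Grm6 and Isl1, which were therefore not tested. It also needed Grik1, whereas members needed any of 6 bipolar genes, Trpm1 and Grm6 among them. The directions of both lists were thus partly set by the choice.

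A set of 19 genes was higher in members than in all 3 gates. Besides Fn1 and Reln they included Kcnab1 (log2 differences of 2.05 against rod bipolar, 1.65 against type 5 and 1.71 against OFF), the transcription factor gene Sox5 (1.81, 1.26 and 2.27), Gabrr2 (0.86, 0.58 and 2.50) and the calcium-activated chloride channel gene Ano2 (1.11, 1.30 and 1.20). Gnat3 was among them (0.86, 1.40 and 1.76, limma adjusted p = 0.0113, 0.00331 and 0.00158). Its level was low, with a median of 0.220 per 10000 in members and 0.0356 in the rod bipolar gate, and it was higher in members in 8 of 11 libraries against that gate. Apoe was also among the 19, and a part of Müller RNA in it was not tested. With members of the Igfn1-led cluster alone, in 6 libraries, 78 genes were higher than in all 3 gates. They held 18 genes of the set of 19, which is 18 of 19 and 18 of 78. These cells are part of the members and were set against the same gates, so the overlap is no independent result. Against the single gates, 2.61% (rod bipolar), 2.93% (type 5) and 3.33% (OFF) of genes tested were higher in all members.

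OIR against NORM was tested in 11 libraries (3 NORM, 8 OIR) with age and fraction as further terms, leaving out the P17 whole-retina NORM library with 7 members. There were 8 genes of 7502 (0.107%) higher in OIR and none lower, and 419 had an unadjusted p under 0.05. They were the metallothionein genes Mt1 and Mt2, which bind zinc and copper, the hypoxia-inducible mitochondrial genes Bnip3 and Fam162a, the glycolytic genes Hk2, Pfkp and Ldha, and Selenbp1. The count fell to 1 without the P14 rod-depleted NORM library and to 2 without P14 rod-depleted OIR library 2 or the P17 rod-depleted OIR library. With weights by number of cells, 25 genes were higher and 6 lower. Marked members were 47.5% to 69.1% of members in NORM and 31.6% to 77.2% in OIR. NORM values are given in the order P14 rod-depleted, P14 whole and P17 rod-depleted.

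Bnip3 was at 2.27, 2.20 and 2.47 per 10000 in NORM and ranged from 3.35 to 10.5 (median 7.54) in OIR. All 8 OIR libraries lay above all NORM libraries (log2 difference 1.66 ± 0.26 SE, limma adjusted p = 0.00102), and both P17 whole-retina libraries were the lowest of OIR. Ldha, lactate dehydrogenase A, was at 6.25, 4.92 and 6.88 in NORM and from 10.1 to 18.7 (median 13.4) in OIR, again without overlap (1.16 ± 0.23, adjusted p = 0.0196 by limma).

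Mt1 was at 5.09, 2.04 and 7.64 in NORM and ranged from 6.56 to 26.3 (median 18.5) in OIR. In OIR, 6 of 8 libraries lay above the highest NORM library (log2 difference 2.10 ± 0.28, limma adjusted p = 4.1e-05), and the call held in each of 11 fits that left out 1 library. Mt2 was at 0.773, 0.975 and 2.18 in NORM and from 1.13 to 8.17 (median 5.51) in OIR, also with 6 of 8 above (1.88 ± 0.37, adjusted p = 0.0196 by limma). The metallothioneins were highest in the rod-depleted OIR libraries and P14 whole-retina library 1.

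Hk2, hexokinase 2, was at 0, 0.104 and 0.286 in NORM, from 5 UMIs in all, and from 0.327 to 1.56 (median 1.20) in OIR, from 128 UMIs. The groups did not overlap (log2 difference 2.07 ± 0.42, limma adjusted p = 0.0272). Pfkp, a phosphofructokinase, was at 6.30, 6.74 and 11.1 in NORM and from 10.7 to 22.5 (median 16.9) in OIR, with 7 of 8 above (1.12 ± 0.23, adjusted p = 0.0294 by limma). Fam162a was at 1.07, 1.21 and 0.737 in NORM and from 1.87 to 3.47 (median 2.90) in OIR, with no overlap (1.36 ± 0.29, adjusted p = 0.0294 by limma). Selenbp1 was at 0.0495, 0.213 and 0.343 in NORM, from 8 UMIs, and from 0.300 to 2.48 (median 1.03) in OIR, with 7 of 8 above (1.95 ± 0.41, adjusted p = 0.0294 by limma). Leaving out 1 library at a time kept the call of Hk2 in 4, Pfkp in 5, Fam162a in 3 and Selenbp1 in 4 of 11 fits, and of Bnip3 in 10, Ldha in 7 and Mt2 in 6.

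**Figure D4:**
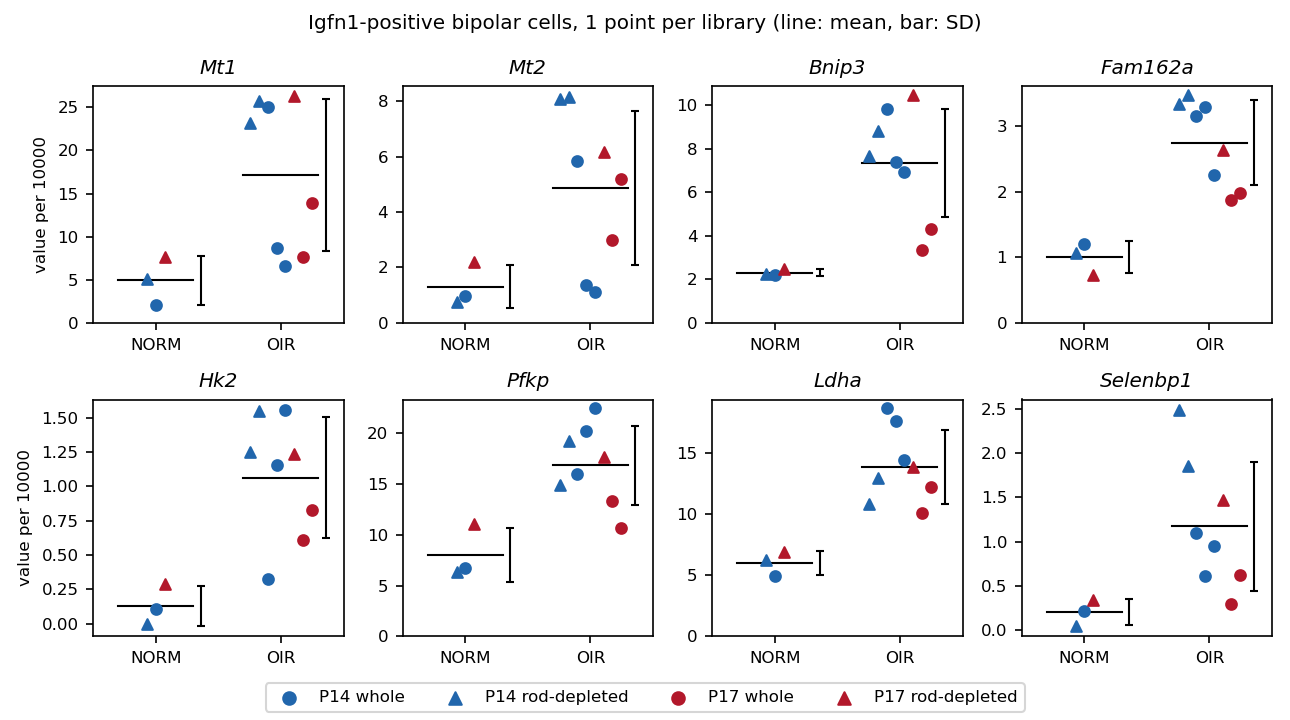
Mean normalised value per 10000 in members (y axis) for the 8 genes higher in OIR, with 1 point per library (colour: age; shape: fraction), the mean (line) and SD (bar) of 3 NORM and 8 OIR libraries. Bnip3, Ldha, Hk2 and Fam162a show no overlap between the groups, and Mt1 and Mt2 overlap in 2 OIR libraries.

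Of the hypoxia list, 5 of 22 tested genes were higher and none lower, with a median log2 difference of 0.68 beside -0.04 over all genes, where 0.107% of all genes were higher. Of the glycolysis list, 3 of 20 were higher, with a median of 0.51. These 3 genes, Hk2, Pfkp and Ldha, are also in the hypoxia list, so they are not a second result. Pdk1 (1.25, adjusted p = 0.429 by limma), Slc16a3 (0.88, adjusted p = 0.759 by limma), Pkm (0.67, adjusted p = 0.578 by limma) and Vegfa (0.71, adjusted p = 0.871 by limma) did not pass, although all 8 OIR libraries lay above NORM for Slc16a3. None of 13 immediate early genes passed, with a median of 0.996, and their summed level was 7.00 to 10.7 in NORM and 11.3 to 58.9 in OIR. None of the mGluR6 cascade (12 tested), ribbon synapse (21) and bipolar transcription factor (23) lists had a gene past the threshold, which at 0.107% of all genes called says nothing particular of these lists. At P14, 1 OIR and 1 NORM library of each fraction carry the same date in their labels. For these single pairs, which carry no test, rod-depleted OIR library 2 minus NORM gave 2.29 for Mt1, 1.87 for Bnip3 and 1.03 for Ldha, and whole-retina OIR library 1 minus NORM gave 3.49, 2.06 and 1.88.

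The oxygen difference was also compared with that in other bipolar cells. The difference in members minus that in the rod bipolar gate passed for none of 7359 genes by limma (297 at an unadjusted p under 0.05), and that minus the type 5 gate for none of 7736 (456). The oxygen difference at P17 minus that at P14 passed for none of 7502 (323). The only P17 NORM library in that comparison of ages was rod-depleted, so its absence of calls says little. Members with at least 2 rod bipolar markers gave log2 differences of 2.79 for Hk2, 1.66 for Pfkp and 1.80 for Mt1. With members of the Igfn1-led cluster alone, in 6 libraries, no gene passed by limma and 834 had an unadjusted p under 0.05, with differences of 3.57 for Mt1, 2.27 for Bnip3, 1.49 for Ldha and -0.04 for Selenbp1. The only P17 NORM library of that fit is also its only rod-depleted one, so these differences set P14 whole-retina OIR libraries 2 and 3 against 1 NORM library, and the absence of calls says little. Summed Müller marker levels were 5.14 to 16.8 in NORM and 5.49 to 23.1 in OIR members, and summed rod marker levels were 2.54 to 24.6 and 1.89 to 99.3. Their part in the oxygen differences was not tested.

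P17 against P14 gave 11 higher (0.147%) and 4 lower genes (0.0533%), 0.2% of 7502 in all, with 555 at an unadjusted p under 0.05. Sec1, a fucosyltransferase gene and one of the leading genes of the Igfn1-led cluster, ranged from 0 to 2.50 (median 0.627) in the 7 P14 libraries and was at 3.17 to 4.32 in the 4 P17 libraries, without overlap (log2 difference 2.13 ± 0.36, limma adjusted p = 0.00223). The amino acid transporter gene Slc38a3 rose (1.19 ± 0.23), as did Amy1 (1.35 ± 0.25), the long non-coding RNA Snhg11 (1.99 ± 0.35) and the clock gene Nr1d1 (1.18 ± 0.26). Arr3, cone arrestin, and Sag, rod arrestin, rose too (2.82 ± 0.46 and 1.42 ± 0.31), and the part of photoreceptor RNA was not tested. Prkca was lower at P17, with medians of 11.9 at P14 and 5.86 at P17 (-0.97 ± 0.22, limma adjusted p = 0.0402), and the call held in 3 of 11 fits that left out a library. Prkca is a rod bipolar marker, and a change per cell cannot be told apart here from a change in make-up. Marked members were 31.6% to 77.2% of members at P14 and 37.5% to 63.3% at P17. With members of the Igfn1-led cluster alone, the Prkca difference was 1.0. With no P17 whole-retina NORM library in the fit, the whole-retina comparison of ages rests on OIR libraries.

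Rod-depleted against whole retina gave 59 higher (0.786%) and 162 lower genes (2.16%), 2.95% of 7502 in all. All 10 rod genes tested were lower in rod-depleted libraries, with a median log2 difference of -3.43 beside -0.11 over all genes. The summed level of the rod list was 24.6 to 99.3 per 10000 in members of the 6 whole-retina libraries and 1.89 to 10.96 in those of the 5 rod-depleted libraries. The make-up of the members also differed with the fraction: marked members were 52.1% to 77.2% of members in the 5 rod-depleted libraries and 31.6% to 47.5% in the 6 whole-retina libraries, and members of the Igfn1-led cluster were 6.35% to 17.1% and 32.5% to 46.6%. Neither pair of ranges overlapped.

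Genes of the marked and unmarked members differed between the fractions in the same direction as that make-up. Pcp4 ranged from 49.5 to 76.4 in rod-depleted and from 15.01 to 24.3 in whole-retina libraries (log2 difference 1.66 ± 0.17, limma adjusted p = 1.8e-08), and Sebox (1.67 ± 0.22) and Pcp2 (1.02 ± 0.15) were higher as well. Vsx1 ranged from 0.274 to 1.89 and from 2.83 to 9.26 (-2.35 ± 0.32, limma adjusted p = 4.7e-06), and Cplx4 (-2.14 ± 0.32), Cdh9 (-1.76 ± 0.31) and Gria2 (-1.14 ± 0.24) were lower. Igfn1 itself, which the rule read, was at 10.4 to 20.95 in whole-retina and 11.7 to 17.3 in rod-depleted libraries. With members of the Igfn1-led cluster alone, no gene passed by limma and 964 had an unadjusted p under 0.05, but only 1 rod-depleted library was left in that fit, so this says little of the fraction. A change per cell and a change in make-up cannot be told apart in these sums over members.

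No difference in the share of cells that were members passed an exact permutation test. It was 3.78% ± 1.88 (SD, n = 8) in OIR and 3.34% ± 1.51 (SD, n = 4) in NORM, a difference of 0.52 points over the strata of age and fraction (two-sided exact permutation p = 0.722, adjusted over 3 comparisons 0.983; the smallest p the design allows is 0.0139). It was 4.48% ± 2.36 (SD, n = 5) at P17 and 3.04% ± 0.77 (SD, n = 7) at P14 (exact permutation p = 0.542, adjusted 0.983). Rod-depleted libraries had 3.52% ± 0.69 (SD, n = 5) and whole-retina libraries 3.72% ± 2.23 (SD, n = 7; exact permutation p = 0.983, adjusted 0.983). As a share of the cells in any of the 4 bipolar gates, members were 7.36% to 13.0% in rod-depleted and 9.86% to 24.45% in whole-retina libraries, a difference of -7.34 points over the strata (exact permutation p = 0.0667, adjusted 0.2). The deep P17 whole-retina OIR libraries had the highest shares, 6.86% and 6.51%, and the shallow P17 whole-retina NORM library the lowest, 1.23%. At 500 UMIs per cell they had 2.32%, 2.52% and 1.30%, and OIR had 1.76% ± 0.59 (SD, n = 8) against 2.22% ± 0.70 (SD, n = 4) in NORM (exact permutation p = 0.292, adjusted 0.825).

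**Figure D5:**
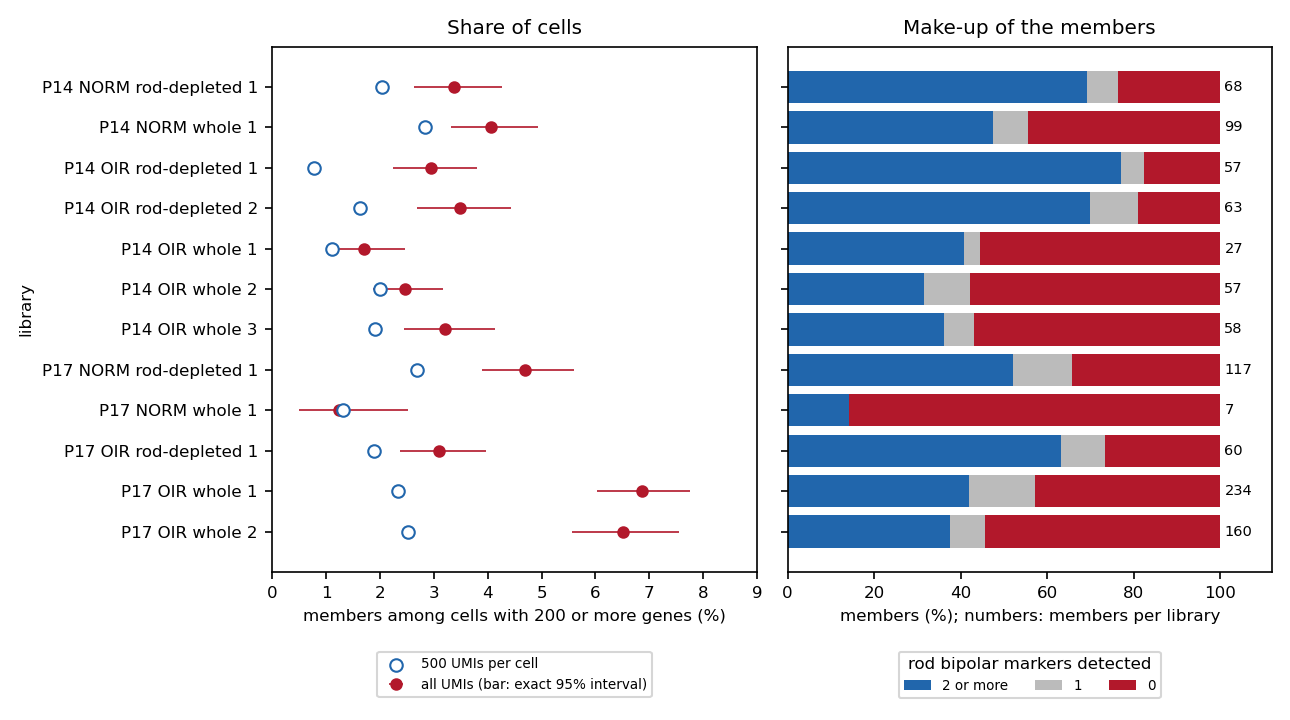
Share of cells that were members (left, x axis in percent) in each of 12 libraries (y axis), with all UMIs (filled, bar: exact 95% binomial interval) and after thinning to 500 UMIs per cell (open), and make-up of the members by number of rod bipolar markers (right, x axis in percent of members, with the number of members). The P17 whole-retina OIR libraries stand at 6.86% and 6.51% with all UMIs and at 2.32% and 2.52% after thinning.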

How the data were processed

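Drop-seq of 12 libraries gave 1 table in which the authors deposited natural log values, ln(1 + UMI share per cell times 10000), per the values, which sum to 10000 per cell after the log is undone. Bcl2fastq, STAR 2.4.0 and mouse build mm10 are named in the submitters' processing notes. Columns were assigned by their names. The P14 whole-retina NORM columns carry another number than the label, so that match is less sure. A further 5799 columns that matched no library were not used. Whole UMIs were recovered in 100% of non-zero values (tolerance 0.05).

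Members and gene lists were chosen with earlier results of these data known. Cells with at least 200 genes were clustered (leidenalg 0.10.2, 15 neighbours, 30 components, resolution 1). Values were averaged per library (at least 20 cells) and tested with limma 3.58.1 (R 4.3.3) on log2(mean + 0.2), for genes with a mean of at least 0.2 that were above 0 in 3 libraries. Benjamini-Hochberg adjustment ran over all genes, and the test was checked on simulated data. Named were at most 12 genes per direction: by smallest adjusted p, or, against the gates, by size with 1 sign in every library. Members of fixed lists were named in addition. Some genes are not reported here.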

Additional observations from a re-analysis of the deposited data

Results flagged for a closer look

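The share of cells that were members moved in opposite directions under OIR in different groups. In whole retina at P14 the 3 OIR libraries averaged 1.61 points below NORM (-1.61), and in whole retina at P17 both OIR libraries averaged 5.46 points above NORM, a gap of 7.06 points. In rod-depleted retina at P17 OIR was -1.60 points from NORM, so that rod-depleted minus whole at P17 was -7.06 points. These differences between groups were not tested, and NORM has 1 library in each. The P17 whole-retina NORM library had a median of 432 UMIs per cell and 7 members, and the OIR libraries beside it had 1711 and 1794. At 500 UMIs per cell the shares were 1.30% in that NORM library against 2.32% and 2.52% in OIR, 2.68% against 1.88% in rod-depleted retina at P17, and 2.83% against 1.11%, 1.995% and 1.90% in whole retina at P14.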

How the results depend on the processing

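The number of genes past the threshold moved with the processing. For OIR against NORM (8 genes) it was 5 with a pseudocount of 0.05, 4 with 1, 0 without a filter on low values, 0 in members of the Igfn1-led cluster, 1 in every cell of that cluster, 1 without members that had Prkca, Sebox or Vstm2b, 5 in P14 libraries alone, 31 with weights by number of cells (25 higher, 6 lower), 6 in members at 500 UMIs (4 higher, 2 lower), 7 in marked members (6 higher, 1 lower), and 1 to 11 when 1 library was left out (1 without the P14 rod-depleted NORM library; 2 to 5 without any 1 of 7 others). For P17 against P14 (15) it was 6 with a pseudocount of 0.05, 0 without a filter, 0 in members of the Igfn1-led cluster, 0 without members that had Prkca, Sebox or Vstm2b, 87 with weights, 5 without both P17 whole-retina OIR libraries, 7 in every cell of the cluster, 0 in members with at least 2 rod bipolar markers, 2 in members at 500 UMIs, and 6 to 21 when 1 library was left out. For rod-depleted against whole (221) it was 33 without a filter, 379 with summed UMIs, 0 in members of the Igfn1-led cluster, 0 without members that had those 3 genes, 376 with weights, 134 at P14 alone, 100 in every cell of the cluster, 84 in marked members, 64 at 500 UMIs, and 120 to 326 when 1 library was left out. The oxygen by age term (0) gave 231 without a filter and 0 to 5 when 1 library was left out (5 without the P14 rod-depleted NORM library).

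Against the rod bipolar gate (327), 136 genes passed without a filter, 789 with members of the Igfn1-led cluster, and 267 to 335 when 1 library was left out. Against the type 5 gate (444), 228 passed without a filter, 246 with members of at least 2 Igfn1 UMIs, and 344 to 444 when 1 library was left out. Against the OFF gate (523), 301 passed without a filter and 408 to 574 when 1 library was left out. The cause of these moves was not tested. The fits of oxygen, age and fraction in members of the Igfn1-led cluster, and those without members that had Prkca, Sebox or Vstm2b, held 6 libraries with 1 rod-depleted, so their counts say little of the fraction, and their oxygen difference rests on 1 NORM library.

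The difference in share for OIR against NORM was -0.183 with at least 500 genes per cell, -0.424 at 500 UMIs, -1.12 without both P17 whole-retina OIR libraries, and -1.12 to 1.23 when 1 library was left out. For P17 against P14 it was -0.407 as a share of the bipolar gates, -0.548 without both P17 whole-retina OIR libraries, and 0.424 to 1.81 when 1 library was left out. For rod-depleted against whole (-0.013) it was -7.34 as a share of the bipolar gates (exact permutation p = 0.0667), 1.18 without both, and -1.17 to 1.18 when 1 library was left out. None passed the exact permutation test.

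Among 116 named genes, 1830 of 2191 alternative values kept direction and call, 343 kept the direction and lost the call, and 18 turned. In members of the Igfn1-led cluster these were Selenbp1 (-0.0367, oxygen), Prkca (1.0, age), Hbb-bs (-0.14), Dnaja1 (-0.40), Rp1 (0.12) and Nr2e3 (0.51) for fraction, Ablim1 (-0.57) and Car8 (-1.84) against type 5, and Car8 (-0.70) and Ablim1 (-0.33) against OFF. In every cell of that cluster they were Sag (-0.28) and Prkca (0.0495) for age and Rpgrip1 (0.52) for fraction. In marked members it was Mpp4 (-0.0361, age). Without members that had Prkca, Sebox or Vstm2b they were Qpct (-0.56), Dnaja1 (-1.28), Timm8b (-0.80) and Pde6g (0.42) for fraction.

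With a replicate block the counts were 7 for oxygen, 13 for age, 162 for fraction and 0 for the oxygen by age term. The deviations of OIR libraries of the same number had correlations of -0.109 to 0.034 over 6 pairs. Some of these pairs set a P14 library against a P17 library, and no NORM library was in them. Whether libraries of the same number belong together was not tested. Fits within members of at least 2 Igfn1 UMIs, and the oxygen by age term in members of the Igfn1-led cluster or without members that had those 3 genes, could not be fitted.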
